A study of Saccharomyces cerevisiae with 28 samples.

Results

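The genes described here encode the proteins of the yeast mitochondrial ribosome. They were chosen by name, as the R64 genes of Saccharomyces cerevisiae whose symbol begins with MRPL, MRPS or RSM or is MRP followed by a digit, with MRP8 left out. The rule gave 66 of 6002 nuclear protein-coding genes, and all 66 were found by systematic name among the 9217 features of the count tables. By their product names 38 encode proteins of the large subunit and 27 proteins of the small subunit. RSM22 is the exception, since its product name is a tRNA methyltransferase. The product names also mark 27 proteins as shared by ribosomes of all kingdoms, 14 as shared with bacteria and 24 as particular to mitochondria.

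The mitochondrial ribosome translates the few mRNAs encoded by mitochondrial DNA, most of which specify subunits of the respiratory chain and the ATP synthase. Its rRNAs come from mitochondrial DNA, whereas nearly all of its proteins are encoded in the nucleus, translated in the cytosol and imported. In yeast, many of these mRNAs carry an element after the stop codon that is bound by Puf3, an RNA-binding protein that controls their decay and their translation near mitochondria.

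Sro9 and Slf1 are LARPs, cytosolic proteins that share a La motif and bind mRNA. Their RNA contacts were mapped by PAR-CLIP, in which 4-thiouracil built into RNA is crosslinked to protein by UV light and read as a T to C conversion. The protein-bound fragments were trimmed by RNase T1, which cleaves 3′ of G, and total RNA was sequenced beside them. The strains derive from BY4741, a haploid laboratory strain lacking functional URA3, LEU2, MET17 and HIS3. Every group held 2 libraries, untreated or after 0.4 mM H2O2 for 15 min. The total RNA groups were WT, sro9Δ and slf1Δ, whereas PAR-CLIP and a further set of total RNA libraries used strains with a C-terminal TAP tag on Sro9 or on Slf1 at the natural locus. Growth in 4-thiouracil is described for the PAR-CLIP cultures only.

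Nearly all mitoribosomal mRNAs carried the Puf3 element close to their stop codon. The core was searched as TGTANATA, with any base at N, on the sense strand only in the 200 nt after the stop codon. It was present in 65 of 66 genes (98.5%, Wilson 95% interval 91.9–99.7%), against 844 of all 6002 nuclear protein-coding genes (14.1%) and 6 of 138 cytosolic ribosomal protein genes (4.35%). RSM22, the methyltransferase, was the only gene of the set without it. The 65 genes held 79 cores, which began between 8 and 165 nt after the stop codon with a median of 55 nt. A match to these letters is a description of the sequence and was not tested as a site of Puf3 binding. The windows below surround the cores that Sro9 clusters touched in both libraries after H2O2, and they are shown because the clusters of RSM24, MRPL4 and MRPL19 stopped inside the element. They are read from RefSeq R64, 5′ to 3′ on the coding strand, with the core in capitals.
RSM24 (chrIV:813097-813126, minus strand, core from nt 78 after the stop codon): tttctctaaaaTGTACATAgttttagcaca
MRPL4 (chrXII:1015467-1015496, plus strand, core from nt 28): accctctctccTGTAAATAtatatatatat
MRPL19 (chrXIV:292088-292117, minus strand, core from nt 87): ctgatctattcTGTAAATAtgtatataagt
RSM25 (chrIX:187933-187962, minus strand, core from nt 39): cctaaccaaccTGTATATAattaaaaacaa
MRPS12 (chrXIV:694269-694298, minus strand, core from nt 74): atacaacctttTGTAAATAgcaatgaccat

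The total RNA libraries differed widely in depth. The 12 untagged libraries held 3323216 to 21447260 counts, of which 1.61% to 94.8% fell on rRNA features. WT after H2O2 replicate 2, sro9Δ untreated replicate 1 and slf1Δ after H2O2 replicate 1 were over 80% rRNA, and the last held only 720 counts on the 66 genes. The 8 tagged libraries held 32079450 to 41098229 counts, with at most 0.608% on rRNA. Per the study's methods, both kinds of library were made from duplicate cultures, and each total RNA culture was divided in equal parts, of which 1 was treated. Nothing ties a replicate number to a given culture across conditions, so the numbers were used as a block only in an alternative fit. SRO9 had 0 or 1 count in the sro9Δ libraries and SLF1 had 0 in the slf1Δ libraries. URA3, LEU2 and MET17 had at most 2 counts in any library.

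In untreated WT cells the mitoribosomal mRNAs were of moderate and similar abundance. Their median level was 20.5 CPM per kb of coding sequence, against 10.8 for 5684 nuclear genes. CPM are counts scaled to the library size as adjusted by edgeR's TMM normalization, not to the raw library total. The median for the cytosolic ribosomal protein genes was 985. Among the mitoribosomal mRNAs the highest level was 7.15-fold above the lowest. MRPL39, whose large subunit protein has a bacterial counterpart, had the highest mean, with 48.6 and 57.5 per kb in the 2 libraries. RSM19 of the small subunit followed at 34.5 and 48.6, and MRPL50 of the large subunit at 44.3 and 38.5. Both MRPL39 libraries lay above those of the other 2 genes, the lower one by little (48.64 against 48.56 per kb in RSM19), and the libraries of RSM19 and MRPL50 overlapped, so the order of these 2 was not resolved. The lowest levels per kb were those of RSM22 (8.74 and 6.11), RSM28 (13.2 and 7.01) and MRPL24 (11.02 and 9.28).

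After H2O2 the mitoribosomal mRNAs took a larger share of the mRNA counts in WT cells. They made up 0.262% and 0.228% of mRNA counts in the untreated libraries and 0.475% and 0.417% after H2O2, and these ranges did not overlap. The cytosolic ribosomal protein mRNAs moved the other way, from 16.7% and 21.3% to 9.76% and 11.4%. In sro9Δ cells the mitoribosomal share was 0.417% and 0.299% untreated and 0.385% and 0.421% after H2O2, so the conditions overlapped. The untreated library at 0.417% was 93.7% rRNA. In slf1Δ cells the share was 0.241% and 0.210% untreated and 0.492% and 0.275% after H2O2. Both treated slf1Δ libraries were above both untreated ones, but the value of 0.492% came from the library with 94.8% rRNA. The part of rRNA content in these differences was not tested. Fewer cells with an mRNA and less of it per cell cannot be told apart in such bulk samples.

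**Figure D1:**
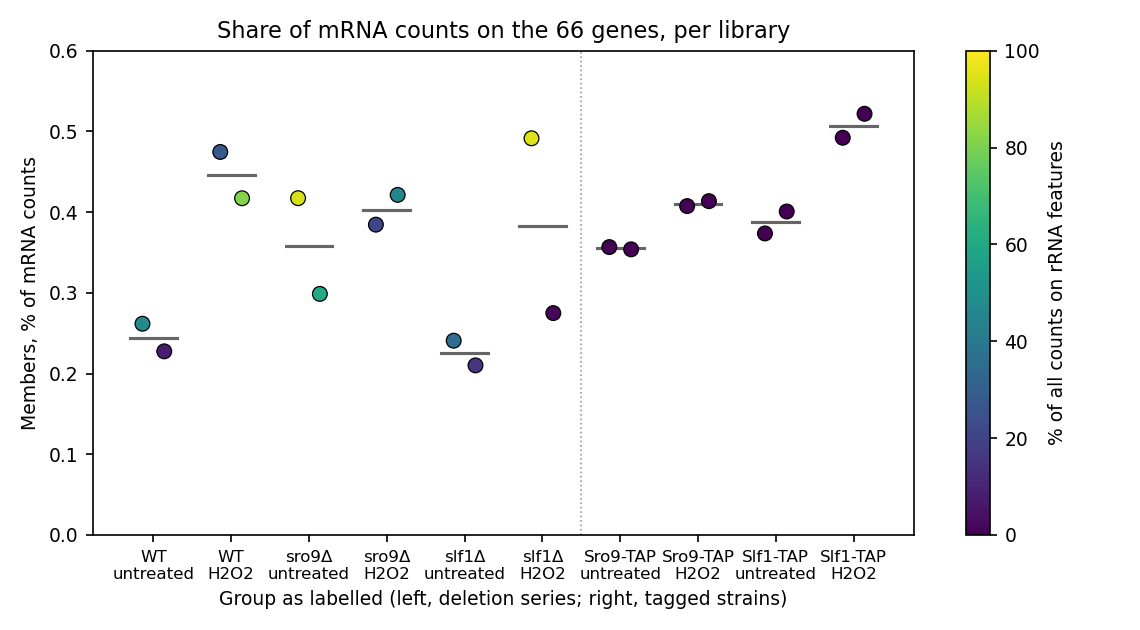
Share of mRNA counts on the 66 mitoribosomal genes (%, vertical axis) in each of 20 total RNA libraries, by group as labelled, with the group mean as a bar and the share of rRNA counts as colour. WT rose from 0.262% and 0.228% to 0.475% and 0.417%, and the sro9Δ conditions overlapped.

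Gene by gene, 30 of the 66 mRNAs rose in WT and 1 fell (edgeR's quasi-likelihood test, Benjamini-Hochberg adjusted p under 0.05 over 7746 features). Of all features 18.4% rose and 15.6% fell. The median log2 change of the 66 genes was 0.71, a 1.64-fold rise, against 0.02 over all features, and 65 of 66 estimates were above 0. Both treated libraries exceeded both untreated ones for 50 of the 66 genes, where 34.4% of all features did so. Both subunits contributed. In the large subunit 19 of 38 genes rose with a median log2 change of 0.75, and in the small subunit 11 of 27 rose with a median of 0.68. Genes for proteins shared by all kingdoms (14 of 27 rose), shared with bacteria (4 of 14) and particular to mitochondria (12 of 24) had medians of 0.84, 0.66 and 0.74.

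MRPL28, a large subunit protein particular to mitochondria, had the largest rise. Its levels were 7.40 and 9.84 CPM untreated and 27.1 and 23.4 after H2O2. The groups were far apart, with a log2 change of 1.55 ± 0.26 (SE, n = 2 per group; adjusted p = 3.54e-04, edgeR). MRPS12, the small subunit protein that lies in the decoding centre of the ribosome, had 5.29 and 9.78 CPM untreated and 25.3 and 15.4 after H2O2, a log2 change of 1.45 ± 0.37 (adjusted p = 0.00683, edgeR). MRPL38 of the large subunit had nearly the same level in the 2 untreated libraries, 10.8 and 10.9 CPM, and 27.2 and 28.8 after H2O2. Its log2 change was 1.36 ± 0.27 (adjusted p = 0.0011, edgeR).

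The next largest rises belonged to both subunits. MRP35 (log2 change 1.32), MRPL1 (1.26), MRPL25 (1.22), MRPL16 (1.204), MRP49 (1.19) and MRPL4 (1.18) encode large subunit proteins. RSM10 (1.198) encodes the small subunit protein related to bacterial S10. MRP2, a small subunit gene that the study used as a non-target in RT-PCR, had 8.67 and 14.5 CPM untreated and 23.0 and 23.4 after H2O2. Its log2 change was 0.97 ± 0.31 (adjusted p = 0.0224, edgeR). RSM22 went the opposite way, with 16.5 and 11.5 CPM untreated and 8.26 and 5.47 after H2O2. Its log2 change was −0.92 ± 0.30 (adjusted p = 0.0282, edgeR), and its call was lost with DESeq2 (adjusted p = 0.064). The calls of MRP2 and RSM22 were also lost without WT untreated replicate 1 or either WT library after H2O2, with log2 changes of 0.67 to 0.99 for MRP2 and −1.34 to −0.62 for RSM22. That of MRPS12 was lost without WT after H2O2 replicate 1, where its log2 change was 0.997.

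The count of calls in WT leaned on a single library. Without WT after H2O2 replicate 1, only MRPL1, MRPL3, MRPL16, MRPL28, MRPL38 and RSM24 rose, 6 in all, and the median log2 change was 0.63. That is 9.09% of the 66 genes, where 7.98% of all features rose in the same fit. DESeq2 called 24 of the 30 higher, and no other, and called none lower (1 at an unadjusted p under 0.05), where it called 14.1% of all features higher and 13.5% lower. With the 3 libraries over 80% rRNA left out, a choice made after the data were seen, 25 rose with a median of 0.83, where 13.3% of all features did. In each fit that left libraries out, a group reduced to 1 library was assumed to vary like the other groups.

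**Figure D2:**
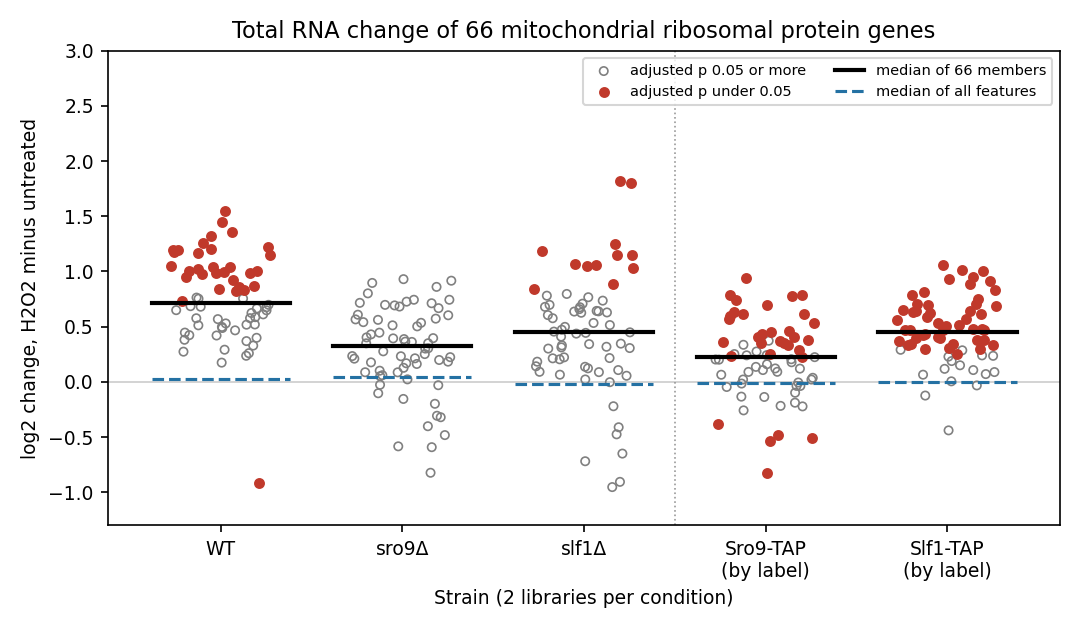
Fitted log2 change after H2O2 (vertical axis) of each of the 66 genes in 3 untagged strains and, by label, in 2 tagged strains. Filled points passed an adjusted p of 0.05, solid bars are the medians of the 66 genes (0.71 in WT) and dashed bars those of all features.

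Other lists of nuclear genes for mitochondrial translation were counted in WT beside the 18.4% of all features that rose. Of 12 mitoribosomal protein genes with other symbols 8 rose and none fell, with a median log2 change of 0.89. Mitochondrial tRNA synthetases rose in 5 of 13 cases (median 0.68), translation factors in 2 of 7 (0.75) and translational activators in 4 of 9 (0.50), and 1 activator fell. None of 6 mitoribosome assembly genes rose and 1 fell, with a median of −0.13. The cytosolic ribosomal protein genes fell in 37 of 138 cases and rose in none, with a median log2 change of −1.10. Outside the mitoribosomal set, genes with the Puf3 core had a median log2 change of 0.17 (192 of 768 rose) and those without it −0.06 (887 of 4863 rose). PUF3 itself had 50 and 30.4 CPM untreated and 36.8 and 41.3 after H2O2, so its libraries overlapped.

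In sro9Δ cells no mitoribosomal mRNA passed the test after H2O2 by edgeR or by DESeq2. By edgeR 9.82% of all features rose and 5.09% fell, by DESeq2 8.18% and 5.63%. At an unadjusted p under 0.05, 12 of the 66 were higher and 2 lower, where 16.6% of all features were higher and 12.4% lower. The share of members that were higher was thus near that of all features, and the share that were lower was under it. The median log2 change was 0.33, against 0.04 over all features. MRPL24 of the large subunit came nearest, with 10.7 and 7.11 CPM untreated and 16.1 and 14.4 after H2O2 (log2 change 0.92 ± 0.33, adjusted p = 0.0727, edgeR). The sro9Δ library with 93.7% rRNA held 876 counts on all 66 genes, and 19 of them had fewer than 10 counts there. No member passed without that library or without the 3 libraries over 80% rRNA either. The count was 4 without WT untreated replicate 1 or 2 (12.9% and 13.1% of all features rose), 1 without sro9Δ untreated replicate 2 (3.58%), and 0 with any other library left out.

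In slf1Δ cells 12 of the 66 mRNAs rose and none fell by edgeR, where 10.7% of all features rose and 5.58% fell. At an unadjusted p under 0.05, 25 were higher and 2 lower, against 16.8% and 13.2% of all features. The median log2 change was 0.45, against −0.02 over all features, and 9 of the 12 had also risen in WT. RSM18, a small subunit gene, had the smallest p, with a log2 change of 1.82 ± 0.42 (adjusted p = 0.0078, edgeR). It had 10.5 and 5.85 CPM untreated and 46.8 and 20.4 after H2O2. The value of 46.8 came from 26 counts in the library with 94.8% rRNA. MRPL38 had 9.30 and 10.4 CPM untreated and 25.2 and 19.02 after H2O2 in slf1Δ cells, a log2 change of 1.06 ± 0.29 (adjusted p = 0.018, edgeR). The treated libraries of MRPL38 lay above the untreated ones in WT, sro9Δ and slf1Δ cells alike. The 12 calls fell to 6 with DESeq2, which called 8.47% of all features higher, to 5 with the replicate number as a block (8.84%) and to 4 without the libraries over 80% rRNA (7.36%). The last 2 counts, 7.58% and 6.06% of the members, lie under the share of all features. They fell to 1 and 0 without slf1Δ untreated replicates 1 and 2, to 6 and 3 without slf1Δ after H2O2 replicates 1 and 2, and reached 19 without either untreated WT library. In these fits 5.4%, 4.8%, 9.62%, 5.26%, 14.4% and 14.6% of all features rose, in the same order.

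The difference between strains was then tested itself. No mitoribosomal gene had a response that differed between sro9Δ and WT by edgeR (0% of 7746 features did), and none had an adjusted p under 0.621. The estimates were smaller than in WT for 61 of 66 genes, with a median log2 difference of −0.50 and a median SE of 0.43. At an unadjusted p under 0.05, 6 were lower and 0 higher, against 2.53% and 4.79% of all features, and DESeq2 gave no adjusted p for these genes. The smallest p values belonged to MRPL10 (log2 difference −1.17 ± 0.36), MRPL3 (−1.07 ± 0.35), MRPL39 (−1.09 ± 0.42), MRPL13 (−0.90 ± 0.38) and MRPL8 (−0.89 ± 0.38), all of the large subunit. RSM25 of the small subunit came next (−0.82 ± 0.36). MRPL10, which had the smallest p, had 20.3 and 19.4 CPM in untreated WT and 28.2 and 31.3 after H2O2. In sro9Δ cells it had 39.99 and 31.1 CPM untreated and 23.7 and 22.0 after H2O2, so its estimate there was below 0. Only 12 of the 66 estimates in sro9Δ were below 0, and 54 were above. The value of 39.99 came from 30 counts in the library with 93.7% rRNA. Without WT untreated replicate 2, 1 gene passed, where 6.31% of all features did.

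For slf1Δ against WT the edgeR count was also 0, where again 0% of all features passed. The median log2 difference was −0.27 with a median SE of 0.42, and 53 of 66 estimates were below WT. Without adjustment 8 were lower and 0 higher at p under 0.05, against 5.02% and 6.66% of all features. DESeq2 called 1 gene and 0.232% of all features lower. The gene was MRPS12 (log2 difference −2.24, adjusted p = 0.0352, DESeq2), for which edgeR gave −2.17 ± 0.52 (adjusted p = 0.182). In slf1Δ after H2O2 replicate 1, with 94.8% rRNA, MRPS12 had 8 counts. Next came MRPL51 (−1.31 ± 0.49), MRPL8 (−0.997 ± 0.38), MRPL3 (−0.85 ± 0.35) and MRPL37 (−1.21 ± 0.51). Without WT untreated replicate 2, 4 genes (6.06%) and 11.2% of all features passed, and no gene of the set did with any other library left out. Both differences share the WT libraries.

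MRPS12 stood apart from the other genes in untreated deletion cells. Its levels were 5.29 and 9.78 CPM in WT, 14.7 and 30.3 in sro9Δ and 41.5 and 48.3 in slf1Δ, with no overlap between strains. It was higher in untreated slf1Δ than in WT by a log2 difference of 2.53 ± 0.37 (adjusted p = 0.00585, edgeR), a 5.79-fold difference, and it was the only member called there, also by DESeq2. In that comparison 0.0645% of all features were higher and 0.0775% lower by edgeR, and 0.194% were higher by DESeq2. The call was lost without slf1Δ untreated replicate 2, where no member passed, and 10 members (15.2%) differed without WT untreated replicate 2, where 13.6% of all features did. After H2O2 MRPS12 had 46.5 and 47.6 CPM in sro9Δ cells and 14.4 and 32.6 in slf1Δ cells. In slf1Δ cells both treated values were thus under the untreated ones (log2 change −0.72 ± 0.37, adjusted p = 0.204, edgeR). The 14.7 CPM in untreated sro9Δ came from 11 counts in the library with 93.7% rRNA. The 14.4 CPM in treated slf1Δ came from 8 counts in the library with 94.8% rRNA. For sro9Δ untreated against WT, MRPS12 had the smallest p (log2 difference 1.67 ± 0.39, adjusted p = 0.115, edgeR). By edgeR no member differed there, and 0.129% of all features were higher and 0.0775% lower. At an unadjusted p under 0.05, 8 members were higher and 0 lower, against 4.8% and 5.0% of all features. DESeq2 called 1 member and 0.361% of all features higher. Without WT untreated replicate 2, 3 members (4.55%) and 7.9% of all features differed.

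After H2O2 no member differed between either deletion and WT by edgeR. For sro9Δ the median log2 difference was −0.19, and 0% of features were higher and 0.0387% lower. At an unadjusted p under 0.05, 1 gene was higher and 4 lower, against 4.58% and 3.83% of all features. For slf1Δ the median was −0.31, and 0.168% of features were higher and 0.542% lower. There 0 genes were higher and 11 lower at an unadjusted p under 0.05, against 5.73% and 8.21% of all features. Without untreated WT replicate 1 or 2, 1 member differed for slf1Δ, where 5.38% and 5.27% of all features did. DESeq2 called 0 in both and gave no adjusted p for 61 genes in the first. It called 0.194% of all features higher and 0.0904% lower for sro9Δ, and 0.323% and 0.839% for slf1Δ.

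**Figure D3:**
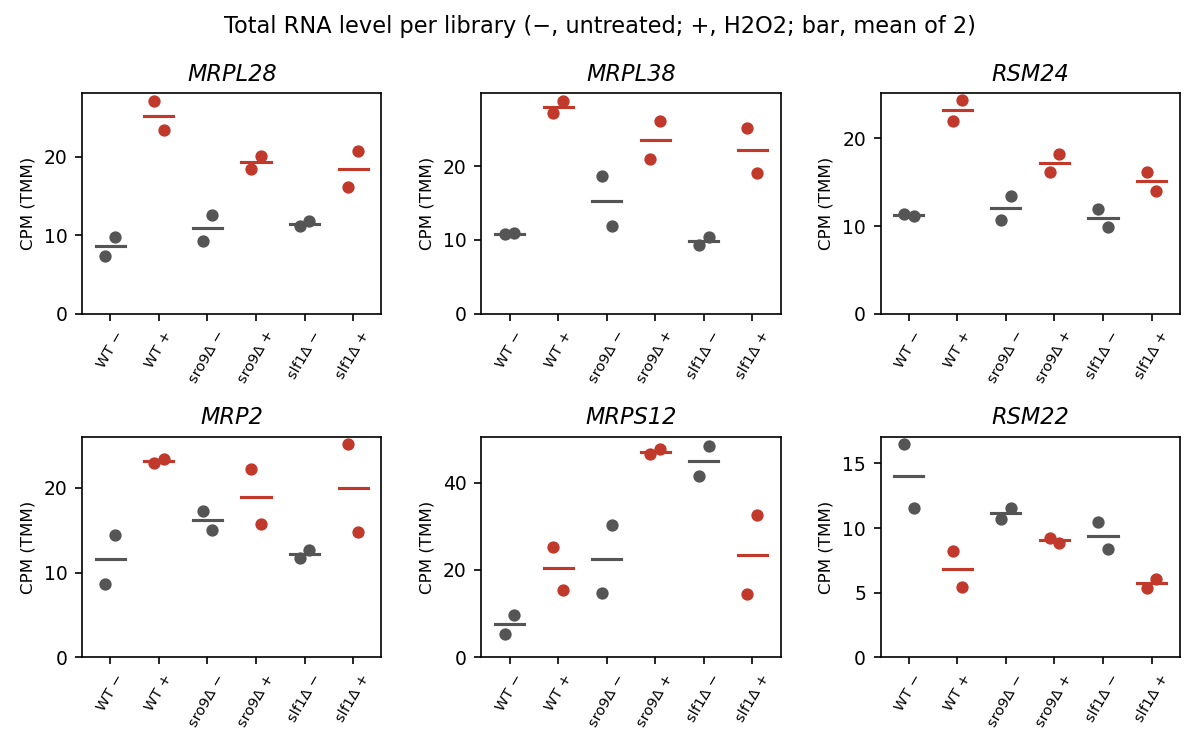
Total RNA level (CPM, vertical axes, each starting at 0) of 6 genes in the 12 untagged libraries, with the mean of each pair as a bar. MRPL28, MRPL38, RSM24 and MRP2 rose in WT, MRPS12 was highest at 48.3 CPM in untreated slf1Δ, and RSM22 fell in WT.

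The tagged strains gave deeper libraries whose labels went against known H2O2 response genes. SRX1, which encodes sulfiredoxin, and TSA2, which encodes a peroxiredoxin, rose in untagged WT by log2 changes of 9.21 and 7.86. In the tagged strains SRX1 had 13633 to 36468 counts in the libraries labelled untreated and 39 to 138 in the libraries labelled H2O2, and TSA2 had 198293 to 245260 and 2772 to 3450. The comparisons below therefore follow the labels without taking them as the treatment. Between the libraries labelled H2O2 and untreated of the Sro9-TAP strain, 27 of the 66 genes were higher and 5 lower in the former (edgeR), where 29.8% of all 7689 features were higher and 29.3% lower. The median log2 difference was 0.23, against −0.01 over all features. In the Slf1-TAP strain 49 genes were higher in the libraries labelled H2O2 and none lower by edgeR (1 lower at an unadjusted p under 0.05 and 1 by DESeq2), where 29.7% of all features were higher and 29.4% lower, 31.4% at an unadjusted p and 29.8% by DESeq2. The median was 0.45, against 0.00 over all features, and 25 genes were higher in both strains.

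By estimate 49 of the 66 mRNAs in Sro9-TAP and 63 in Slf1-TAP were thus lower where SRX1 and TSA2 were high, whereas in WT 65 were higher there. RSM24 of the small subunit had 45.2 and 44.0 CPM in the Sro9-TAP libraries labelled untreated and 68.3 and 68.1 in those labelled H2O2, a log2 difference of 0.61 ± 0.06 (adjusted p = 1.6e-04, edgeR). In the Slf1-TAP strain it had 40.7 and 44.0 CPM against 71.3 and 77.9. MRPS12 was the reverse, with 137 and 154 CPM in the Sro9-TAP libraries labelled untreated and 81.2 and 82.8 in those labelled H2O2 (log2 difference −0.83 ± 0.17, adjusted p = 0.0047, edgeR). MRPL28, MRP10, MRPL36 and MRP49 were the other 4 genes lower there. Cytosolic ribosomal protein genes were higher in the libraries labelled H2O2 for 77 of 138 in Sro9-TAP and 130 of 138 in Slf1-TAP. With any 1 of the 4 Sro9-TAP libraries left out 18 to 21 genes differed in that strain (45.9% to 51.3% of all features), and with any 1 Slf1-TAP library left out 37 to 52 did (49.5% to 62.4%).

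Sro9 clusters were found on 14 of the 66 mitoribosomal mRNAs untreated and 20 after H2O2 when both libraries had to show one, and Slf1 clusters on none. A target was an mRNA with a PAR-CLIP cluster of at least 5 reads and 2 T to C conversions in both libraries. The PAR-CLIP conditions are those of the labels, which were not checked against H2O2 response genes. In untreated cells 14 of 66 were Sro9 targets (21.2%, Wilson 95% interval 13.1–32.5%), against 27.7% of all nuclear genes. After H2O2 20 were targets (30.3%, 20.6–42.2%), against 32.4%. For Slf1 0 of 66 were targets in either condition, against 4.93% of nuclear genes untreated and 3.25% after H2O2. A count of 0 allows a share of up to 4.55% (3 of 66), and the Wilson interval reaches 5.50%, so the untreated share of nuclear genes lies between these limits. The intervals cover counting error only. With a cluster in either library, Sro9 reached 38 mRNAs untreated and 40 after H2O2 (57.6% and 60.6%), now above the 49.4% and 55.2% of all nuclear genes, and Slf1 reached 4 and 4 (6.06% each), against 15.1% and 11.7%. In all, 49 of the 66 had a cluster in some library. Slf1 libraries were shallower, with 20190 to 32736 mRNA cluster reads against 178036 to 261404 for Sro9. The mitoribosomal mRNAs took 0.188% to 0.313% of these reads for Sro9 and 0.0261% to 0.125% for Slf1, 6 to 39 reads per library. The cytosolic ribosomal protein mRNAs, by contrast, were Sro9 targets in 136 of 138 cases untreated and Slf1 targets in 93.

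Since LARP targets tend to be abundant mRNAs, the share was set beside that of cytosolic genes of similar level. These were nuclear genes whose product name does not mention mitochondria, so some with mitochondrial products remain among them. With levels taken per kb in WT of the same condition, 32.3% of cytosolic genes were Sro9 targets untreated and 49.7% after H2O2, both above the mitoribosomal 21.2% and 30.3%. With levels taken per gene the direction turned in untreated cells, where 17.9% of cytosolic genes were targets, and the shares after H2O2 were 33.2% and 30.3%. The mitoribosomal genes are short, with a median coding length of 706.5 nt against 1194 nt for nuclear genes. Matching on both level per kb and length, a choice made after the data were seen, gave 28.5% untreated and 45.2% after H2O2. Of these shares, those per kb after H2O2 lie above the interval of the mitoribosomal share, and the untreated ones lie inside theirs. For Slf1 the matched shares per kb were 2.35% and 1.38%, and with length matched as well 3.51% and 4.54%. All of these lie below the limits that 0 of 66 allows, the last by very little (4.544% against 4.5455%).

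**Figure D4:**
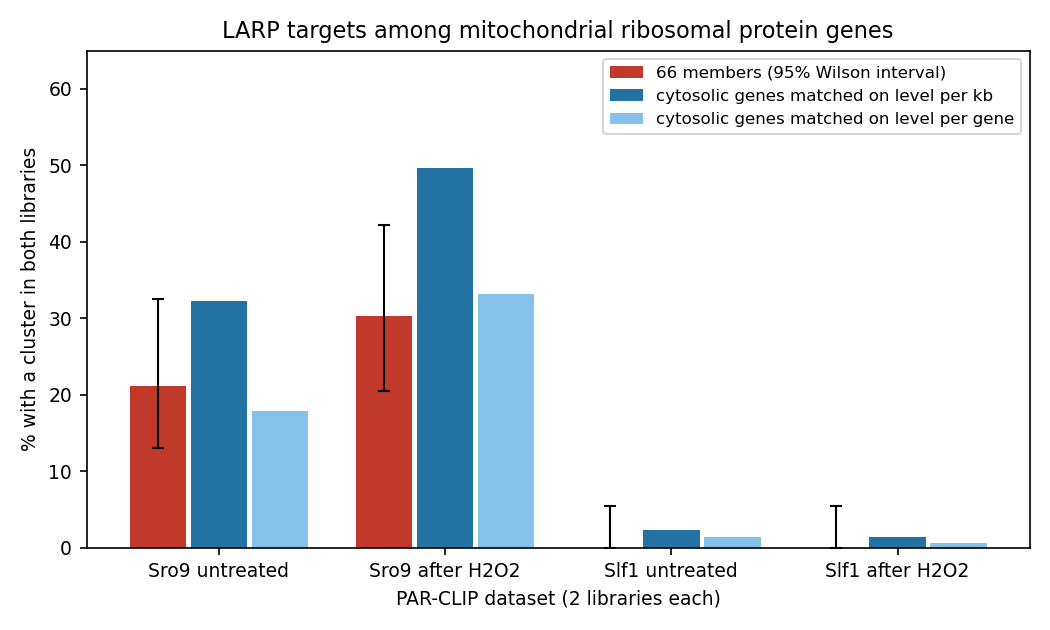
Share of genes with a cluster in both libraries (%, vertical axis, from 0) for the 66 mitoribosomal genes, with Wilson 95% intervals, and for cytosolic genes matched on level per kb or per gene. Sro9 reached 21.2% and 30.3% of the mitoribosomal genes, and Slf1 0% in both conditions.

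Over both conditions 24 of the 66 mRNAs were Sro9 targets, 11 of 27 of the small subunit and 13 of 38 of the large. Targets in both conditions were MRP13, MRPL7, MRPL10, MRPL19, MRPL22, MRPL50, MRPS12, RSM24, RSM25 and RSM26, 10 in all. MRPL8, MRPL9, MRPL35 and MRPS5 were targets in untreated cells only. MRP1, MRPL1, MRPL4, MRPL27, MRPL28, MRPL49, MRPS9, MRPS18, MRPS28 and RSM28 were targets after H2O2 only. No cluster was found in any PAR-CLIP library for 17 genes, MRP2 and MRP35 among them, and such an mRNA can still have had fewer than 5 reads. In WT 11 of 24 targets rose, with a median log2 change of 0.69, and 19 of 42 non-targets, with a median of 0.73. The difference between them was not tested.

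Reads per target were few. MRPS5, a small subunit gene, had the most Sro9 reads in untreated cells, 57 and 50 in the 2 libraries, from a single site about 55.3% of the way along its coding sequence. After H2O2 it had 23 and 0, from a site after the stop codon. RSM24 had 44 and 62 reads untreated and 52 and 52 after H2O2, all from a site that ended on the first letters of the later of its 2 cores, which begin 33 and 78 nt after the stop codon. It was therefore the most even of the well read targets between conditions. MRPL50 had 35 and 34 reads untreated and 98 and 42 after H2O2, from sites with modes 83.3% to 95% of the way along its coding sequence. MRPL19 had 12 and 23 untreated and 77 and 35 after H2O2, which include sites after the stop codon seen only after H2O2. RSM26 had 66 and 33 untreated and 27 and 6 after H2O2, and MRPS12 had 18 and 34, then 26 and 21. MRPS9 had 0 and 10 untreated and 70 and 5 after H2O2, so its place rests on 1 library. Reads on MRPL19 cannot all be assigned to it with certainty, because the annotation holds an open reading frame that overlaps it on the same strand.

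The remaining well read targets had 9 to 38 reads per library. Untreated, RSM25 had 30 and 29 reads, MRP13 20 and 31, MRPL10 26 and 20, MRPL9 18 and 20 and MRPL8 27 and 9. After H2O2, MRPL10 had 38 and 12 reads, MRPL28 13 and 26, MRP13 23 and 16, MRPL4 16 and 20, and MRP1 20 and 13. With at least 20 reads required per cluster, 4 were targets untreated and 3 after H2O2 (6.06% and 4.55%), against 11.4% and 12.6% of all nuclear genes. For Slf1 the 8 members with any cluster had it in 1 library each, and MRP1 had the most reads, 25.

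Sro9 sites on the mitoribosomal mRNAs lay mostly in coding sequence. Of 56 sites in untreated cells 41 were coding, 14 after the stop codon and 1 before the start codon, and 13 of the coding sites lay in the last 20% of the coding sequence. Of 73 sites after H2O2 48 were coding, 23 after the stop codon (31.5%) and 2 before the start, and 19 coding sites lay in the last 20%. Clusters were joined into 1 site when their modes lay less than 10 nt from the first mode. By this rule only 7 and 15 of the sites were seen in both libraries. Overlapping clusters with modes further apart count as separate sites, as in MRPL50 after H2O2 (98 reads in replicate 1 and 42 in replicate 2). Such pairs raise the number of sites and are left out of those seen in both libraries.

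The Sro9 clusters after the stop codon often touched the Puf3 core. Among clusters there on mitoribosomal mRNAs with a core, 7 of 15 overlapped it untreated (46.7%, Wilson 24.8–69.9%) and 19 of 31 after H2O2 (61.3%, 43.8–76.3%). On other genes with a core the counts were 43 of 192 (22.4%) and 49 of 241 (20.3%). Median cluster lengths were 27 and 26 nt on mitoribosomal mRNAs and 26 and 25 nt on the others. The overlap covered the whole core in 4 of 15 and 11 of 31 mitoribosomal clusters (26.7% and 35.5%). On other genes it did so in 24 of 192 and 31 of 241 clusters (12.5% and 12.9%). These shares were not tested, because clusters of 1 mRNA or of replicate libraries are not independent. The gene sets were also not matched on the number of cores or on their distance from the stop codon.

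After H2O2 15 mitoribosomal mRNAs had a Sro9 cluster touching a core, and 6 of these did in untreated cells. Both libraries showed it for RSM24, RSM25, MRPL4, MRPL19 and MRPS12 after H2O2, 5 genes, and for 1 gene, RSM24, untreated. The windows printed above show how the edges fell. In RSM24 the cluster ran from nt 58 to 79 after the stop codon, and its later core starts at nt 78, so the overlap was its first 2 letters, TG. In MRPL4 (cluster to nt 29, core from 28) and in MRPL19 (to nt 88, core from 87) the clusters also ended on these 2 letters. The last of them is a G, after which RNase T1 cleaves, and the part of the enzyme in these edges was not tested. The RSM25 cluster covered all 8 letters, and that of MRPS12, from nt 9 to 80, covered 7. A whole core was covered after H2O2 in 10 mRNAs, mostly in a single library, as in MRPS9 (29 and 0 reads) and MRPL39 (29 and 0).

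**Figure D5:**
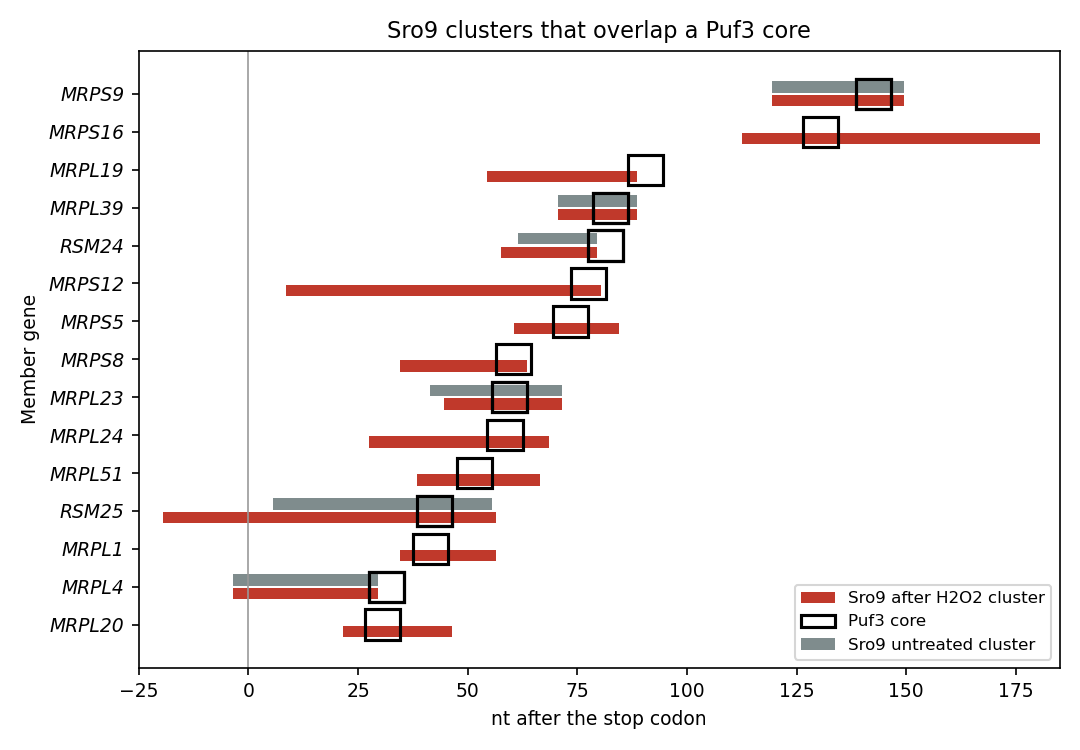
Sro9 clusters (filled bars) and Puf3 cores (open boxes, 8 nt wide) on 15 mitoribosomal mRNAs, by distance from the stop codon in nt (horizontal axis). Clusters of RSM24, MRPL4 and MRPL19 end on the first 2 nt of the core, and those of 10 mRNAs span a whole core.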

How the data were processed

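The members and lists were chosen with earlier results of these data known. For total RNA, per the submitters' processing notes, reads were mapped with Bowtie 1.2.0 to R64 (sacCer3) and the authors deposited featureCounts counts per feature without normalization. PAR-CLIP reads went through Trim Galore and Bowtie, and the authors ran PARalyzer on each library. The deposited tables give counts of reads and conversions and, as a fraction, a mode score that was not used. Clusters with at least 5 reads, 2 conversions and 11 to 100 nt were kept and placed by the R64 annotation, with flanks of 200 nt downstream and 100 nt upstream of the coding sequence in place of UTRs, because the cluster tables name no features.

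Features with at least 10 counts in at least 2 libraries were tested by group in edgeR 4.0.16 (R 4.3.3, TMM, 6 residual degrees of freedom untagged and 4 tagged, the sets fitted apart), and p-values were adjusted over all features. Alternatives were DESeq2 1.42.0, its size factors, no filter, rRNA features left out, a replicate block, each library left out, libraries over 80% rRNA left out, other cluster thresholds and other matchings. The edgeR fit of the WT response was tested on simulated counts. These had the same spread setting for every feature, and changes only in features with many counts. Cluster placement was tested on simulated positions, and the other comparisons and the matching on level were not simulated. MRP4 and MRPL51 overlap genes on the other strand and MRPL19 one on the same strand, so their counts are less certain. Levels per kb divide CPM by coding length. Shares of mRNA counts leave rRNA features out.

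Named genes are MRP2, up to 10 Sro9 targets with the most reads per condition, up to 10 with the largest called change in WT each way, 5 with the smallest p per interaction, and the 3 highest and 3 lowest in untreated WT. RSM18, MRPL24 in sro9Δ cells, RSM25 in the sro9Δ difference and MRPS12 in deletion cells were named after their values were seen. So were the genes named for tagged strains and those with core clusters.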

Additional observations from a re-analysis of the deposited data

How the results depend on the processing

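Most values kept their size under the alternatives, with the following exceptions. The gene lower in WT was 0 with DESeq2 and without the libraries over 80% rRNA. The slf1Δ count of 12 was 6 with DESeq2, 5 with the replicate block and 4 without the libraries over 80% rRNA, and its median of 0.45 was 0.40 with DESeq2's size factors and 0.49 without rRNA features. DESeq2 gave 1 for the slf1Δ interaction and 1 for untreated sro9Δ. Sro9 targets were 4 and 3 at 20 reads (11.4% and 12.6% of all nuclear genes), and 38 and 40 with a cluster in either library (49.4% and 55.2%), where Slf1 had 4 and 4. The either-library shares of the members, 57.6% and 60.6%, turn the direction against all genes. The matched Sro9 share was 17.9% and 33.2% per gene. The matched Slf1 shares of 2.35% and 1.38% were 1.45% and 0.61% per gene, and 3.51% and 4.54% with length matched as well. With 1 library left out, ranges were 0 to 1 lower and 6 to 34 higher in WT (median 0.63 to 0.90), 0 to 4 higher in sro9Δ (0.25 to 0.40), 0 to 2 lower and 0 to 19 higher in slf1Δ (0.42 to 0.48), 0 to 1 and 0 to 4 for the interactions, 0 to 3 for untreated sro9Δ, 0 to 10 for untreated slf1Δ, 0 to 1 for treated slf1Δ, 18 to 21 and 37 to 52 for the tagged strains, and, for targets, 26 to 26, 25 to 35, 1 to 3 and 1 to 3. The cause of these shifts was not tested, beyond the fewer samples. Replicate numbers were shared across conditions, but same-numbered libraries did not deviate together in every strain (r across genes −0.13 in WT, −0.04 in sro9Δ and 0.18 in slf1Δ). The replicate block gave 28 higher in WT, 34 and 51 differing in the tagged strains, and moved no count of members by over 1.5 times except the 5 in slf1Δ given above. A group left with 1 library was assumed to vary like the others. The shallowest library held 720 counts on the 66 genes, and the part of low counts in the calls was not tested.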
